A study of Macaca mulatta with 6 samples.

Results

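Collagens, laminins and integrins were described in cultured luteal cells of rhesus macaques. The members were the genes whose symbol in the array's probe annotation begins like a collagen chain (COL, number, A, number), a laminin chain (LAMA, LAMB or LAMC) or an integrin subunit (ITG), read by probe sets with 1 symbol only. For a gene with several probe sets, the one brightest on average over all 6 arrays was used. The rule gave 68 of the 14132 named genes: 35 collagen chains, 9 laminin chains, 20 integrin subunits and 4 genes of another kind whose symbols share the integrin prefix. Those 4 are ITGB1BP1 and ITGB3BP, which encode proteins named for binding an integrin tail, ITGB1BP2, a muscle protein, and ITGBL1, a secreted protein with integrin-like repeats.

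The cells were dispersed from corpora lutea on day 12 after the luteinizing hormone surge, seeded onto fibronectin without serum and treated from plating for 24 h. The vehicle group received 0.1% DMSO (3 arrays) and the other group 1 µM T0901317 (3 arrays), a synthetic liver X receptor (LXR) agonist. The design text pairs the cultures by replicate number, and the labels call the replicates biological without naming animals. The p-values of the treatment rest on the spread of the 3 paired differences, with spread borrowed from all probe sets. Level differences between replicates are taken out by the pairing, and the p-values apply to these cultures. Age and any further treatment of the animals are not given in the sources used here. Levels are log2 values from RMA, a method that summarises the probes of a probe set. Levels of different probe sets also depend on probe affinity, so no gene's level was ranked against another's.

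Collagens are triple-helical proteins: fibrillar chains (types I, III and V among them) build the stromal scaffold, type IV forms the basement membrane network, type VI forms beaded microfilaments, and others decorate or anchor fibrils. Laminins are trimers of an alpha, a beta and a gamma chain and organise basement membranes. Integrins are receptors made of an alpha and a beta subunit that bind these proteins and signal into the cell, and the beta2 subunit is restricted to leukocytes. The corpus luteum is densely vascular, so its dispersed cells include endothelial, perivascular, stromal and immune cells besides steroid-producing cells.

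Marker genes of luteal, stromal, vascular, immune and epithelial cells were measured in the cultures. All 5 steroidogenic markers measured under a name lay above the reference for dim signal of 4.63, the 95th percentile of the means of the Bacillus control probe sets. STAR, which carries cholesterol into mitochondria, had levels of 10.97, 11.48 and 10.54 in vehicle replicates 1, 2 and 3. Above that reference were also 8 of 9 endothelial markers and 5 of 5 pericyte and smooth muscle markers. So were 6 of 6 fibroblast, 9 of 9 macrophage, 3 of 4 T and NK cell and 4 of 5 blood and neutrophil markers. A mean above it was found for 86.8% of all named genes, so these counts alone do not show which cell types were present. The endothelial receptor KDR and the epithelial marker EPCAM lay below the reference on every array. The other 4 of the 5 epithelial markers lay above it on every array. The mean 3' minus 5' difference over the controls for actin, GAPDH and EF1a, a sign of RNA quality, was higher in replicate 3, at 1.89 with vehicle and 1.30 with T0901317, against 0.69 to 1.00 on the other 4 arrays. The SD of values within an array ran from 1.98 to 2.17 over the 6 arrays, and both lowest values were those of replicate 3. Fewer cells of a type and less RNA per cell cannot be told apart in these bulk samples.

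No collagen, laminin or integrin changed past the threshold with T0901317. In limma's fit with the replicate as a block, 0 of the 68 members rose and 0 fell at an adjusted p under 0.05, while 0.177% of all named genes passed. At an unadjusted p under 0.05 there were 3 members or 4.41%, against 3.73% of all named genes. Over all 136 probe sets of the members 0 passed and 4 had an unadjusted p under 0.05, where 0.0853% of all probe sets passed. In 0 of the 68 did the 3 treated levels lie wholly above or below the 3 vehicle levels, which was so for 1.9% of named genes. The median change was -0.0066 on the log2 scale over the members (32 above 0 and 36 below) and -0.021 over all named genes. Above 0 lay 47.1% of members, 41.4% of all named genes and 38.6% of named genes above the dim reference. The sign counts of families and lists given below are to be set beside these shares of all genes. The 95% intervals, not adjusted for the number of members, lay within 0.5 of 0 on the log2 scale for 64 of 68 members and within 1 for all 68. A change of 2-fold lay outside the interval of each member, and smaller changes lay inside some. The 12 alternatives, among them leaving out each replicate, other normalizations and the fit without the block, also gave 0 calls.

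**Figure D1:**
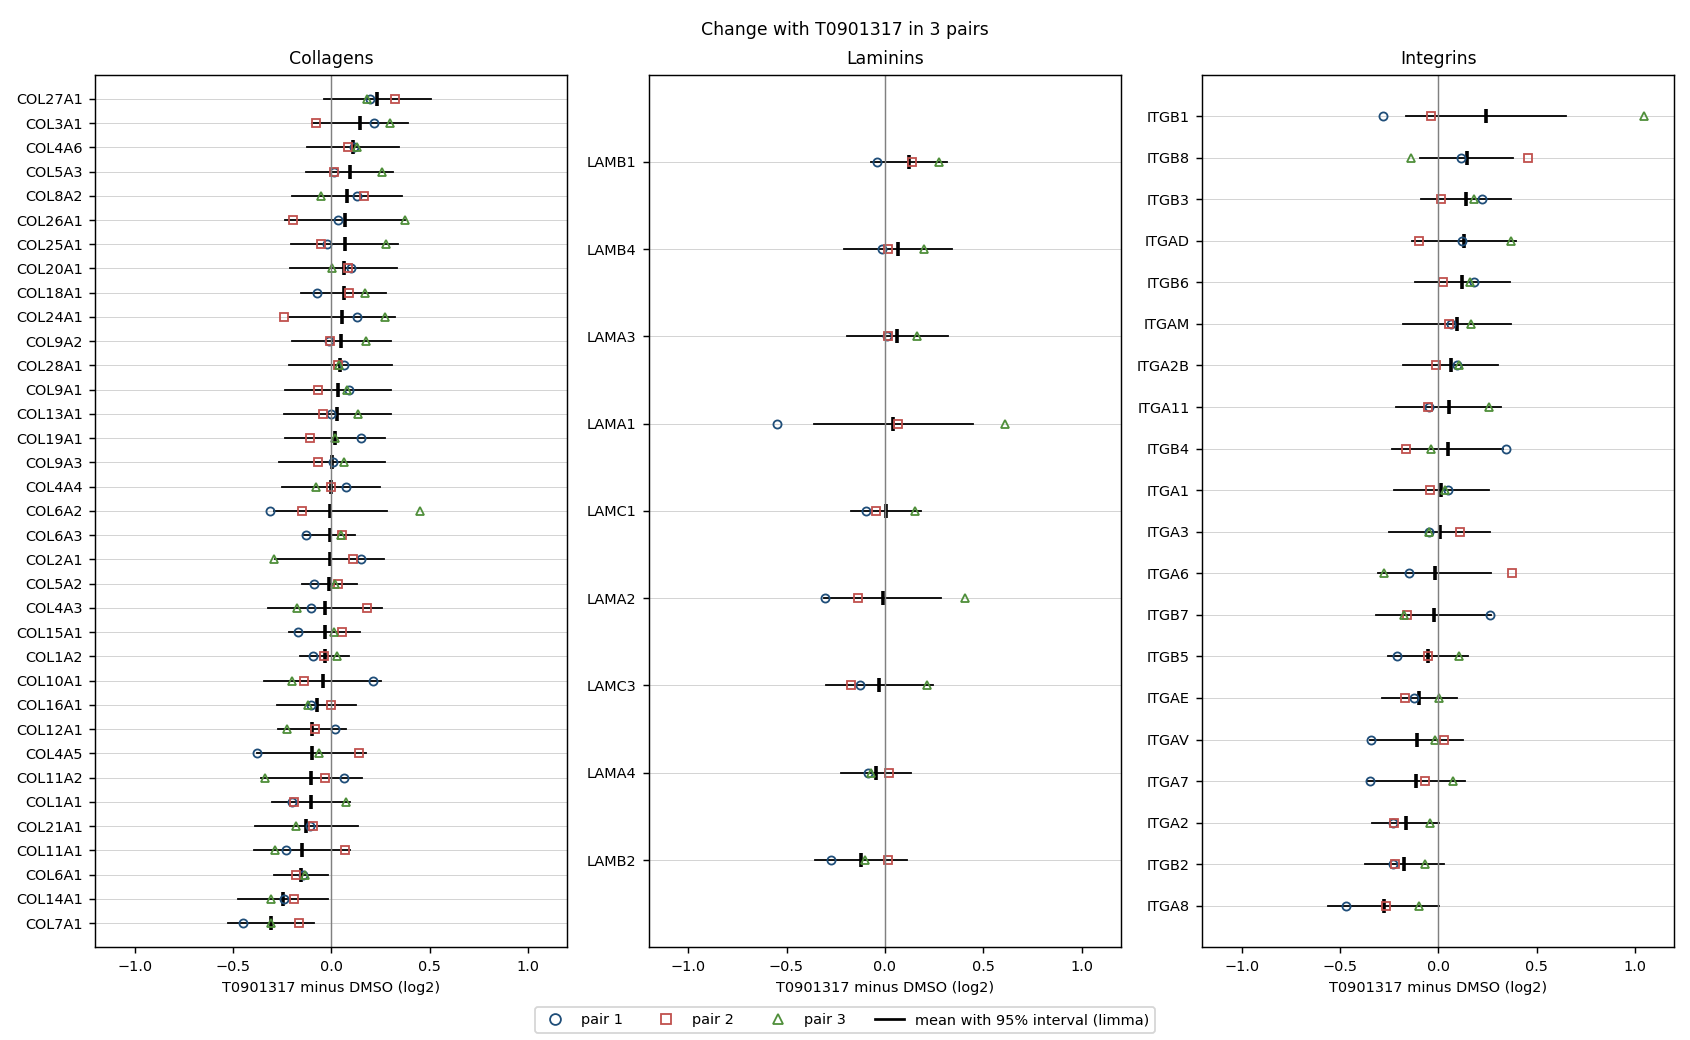
Log2 difference between T0901317 and DMSO (horizontal axis) for each collagen, laminin and integrin (vertical axis, ordered by the mean). Symbols are the 3 pairs, and black marks give the mean with limma's 95% interval; the means run from -0.31 (COL7A1) to 0.24 (ITGB1), and the outlying pair of ITGB1 at 1.05 is that of replicate 3.

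By direction, 20 members (29.4%) had the same sign in 3 of 3 pairs, against 25.2% of named genes. Of these, 11 or 16.2% were lower with T0901317 in every pair and 9 or 13.2% were higher, beside 15.8% and 9.43% of named genes. These shares lay near those of all genes.

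Among the fibrillar collagens, the 2 chains of type I collagen were well above the dim reference. COL1A1 had vehicle levels of 9.65, 10.08 and 8.62 in replicates 1, 2 and 3 and treated levels of 9.45, 9.89 and 8.70. Replicate 3 was lowest in both groups, and the groups overlapped. The change was -0.10 ± 0.09 (limma's SE, n = 3 pairs; 95% interval -0.30 to 0.09; limma adjusted p = 1.00). The SE, given after ± for each gene, borrows limma's spread over all probe sets, and limma's adjusted p was 1.00 for every member. Its partner COL1A2 had 12.72, 12.83 and 11.91 with vehicle and 12.62, 12.79 and 11.93 with T0901317, a change of -0.03 ± 0.06. The COL1A2 probe sets gave the same picture, with changes of -0.03 and -0.01, whereas the other COL1A1 probe set was dim, with a mean of 4.23.

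COL3A1, the chain of type III collagen, had 7.26, 8.41 and 7.00 with vehicle and 7.48, 8.33 and 7.30 with T0901317. Its change was 0.15 ± 0.11, with pair 2 below 0. COL27A1, a fibrillar chain best known from cartilage, had the largest mean increase among the collagens, from 5.24, 5.37 and 5.65 to 5.43, 5.69 and 5.83. It was higher in 3 of 3 pairs, by 0.20, 0.32 and 0.18, but the levels of both groups overlapped and the value of 0.23 ± 0.12 did not pass (95% interval -0.04 to 0.50). Of the 10 fibrillar chains measured, 4 lay above 0 and 6 below, with a median change of -0.010. COL24A1 lay below the dim reference on all 6 arrays.

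Type VI collagen was read by all 3 of its classical chains. COL6A1 had 11.79, 12.11 and 11.05 with vehicle and 11.64, 11.93 and 10.91 with T0901317. It was lower by a similar amount in each pair, with differences of -0.15, -0.18 and -0.14, and its 3 probe sets gave changes of -0.15, -0.19 and -0.13. The fitted change of -0.15 ± 0.06 had an unadjusted p of 0.031 in limma and did not pass after adjustment (adjusted p = 1.00). COL6A2 behaved otherwise, with 8.95, 9.62 and 7.56 with vehicle and 8.64, 9.47 and 8.02 with T0901317. Its pairs differed by -0.31, -0.15 and 0.45, which averaged to -0.0044 ± 0.13, and without replicate 3 the value was -0.23. COL6A3 had 12.84, 13.03 and 12.33 with vehicle and 12.71, 13.08 and 12.38 with T0901317, a change of -0.0088 ± 0.06.

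The largest decrease among the collagens was that of COL7A1, which forms the anchoring fibrils beneath epithelia. Its levels were 8.55, 8.41 and 7.86 with vehicle and 8.10, 8.25 and 7.55 with T0901317. All 3 pairs were lower, by 0.45, 0.16 and 0.31 in size, and a second, dimmer probe set had -0.28. The value of -0.31 ± 0.10 (95% interval -0.53 to -0.09) had an unadjusted p of 0.010 in limma, and none of the alternatives brought it past the threshold, with values from -0.38 to -0.24. COL14A1, which decorates type I fibrils, had 7.70, 7.77 and 6.59 with vehicle and 7.46, 7.58 and 6.28 with T0901317. It was -0.25 ± 0.10, lower in 3 of 3 pairs (unadjusted p = 0.037 in limma), while its other 3 probe sets had changes of -0.13, 0.07 and -0.05. COL21A1, of the same fibril-associated group, had -0.13 ± 0.12, also lower in 3 of 3 pairs. The 9 fibril-associated chains had a median change of 0.0030. All 6 measured fibroblast markers lay below 0 as well, with a median of -0.10 and 0 past the threshold, where 41.4% of named genes lay above 0. The mean level of these markers ran from 8.31 to 9.06 over the vehicle arrays and from 8.26 to 8.99 over the treated arrays. Their part in the values of COL6A1, COL7A1 and COL14A1 was not tested.

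Collagens of vascular basement membrane zones showed no change past the threshold. COL15A1 had 10.01, 10.91 and 8.35 with vehicle and 9.83, 10.97 and 8.36 with T0901317, and its change was -0.03 ± 0.08. COL18A1, the precursor of endostatin, had 8.28, 8.32 and 7.61 with vehicle and 8.21, 8.40 and 7.79 with T0901317, a change of 0.06 ± 0.10. The 4 measured chains of type IV collagen, COL4A3 to COL4A6, had changes of -0.10 to 0.11. The highest was that of COL4A6, whose second, dimmer probe set had -0.10. COL4A4 lay below the dim reference on every array and COL4A3 above it on 4 of 6. COL4A1 and COL4A2, the main vascular chains, were not analysed here. Endothelial markers lay above 0 for 8 of 9 genes, with a median change of 0.21 and 0 past the threshold. Of these 9 markers, 6 (66.7%) were higher in 3 of 3 pairs, against 9.43% of named genes. CDH5 had the largest change, 0.39 ± 0.10 (limma adjusted p = 0.68). The mean level of these markers was 6.77, 7.18 and 6.57 in vehicle replicates 1, 2 and 3, and 6.90, 7.32 and 6.79 with T0901317. The part of endothelial cells in the collagen values was not tested.

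The remaining collagens moved little, and of all 35 collagens 31 had a mean above the dim reference. COL12A1, a fibril-associated chain of dense connective tissue, had a mean level of 10.35 and a change of -0.10 ± 0.08, and COL16A1 had -0.07 ± 0.09 with 3 of 3 pairs lower. COL5A3, a chain of type V collagen, was higher in 3 of 3 pairs at 0.09 ± 0.10. COL11A1, a cartilage fibril chain, had -0.15 ± 0.11. The short chain collagens COL10A1 and COL8A2, the transmembrane collagens COL13A1 and COL25A1, and COL26A1 and COL28A1 had changes of -0.04 to 0.08. COL8A2 had a mean of 4.58, below the dim reference.

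**Figure D2:**
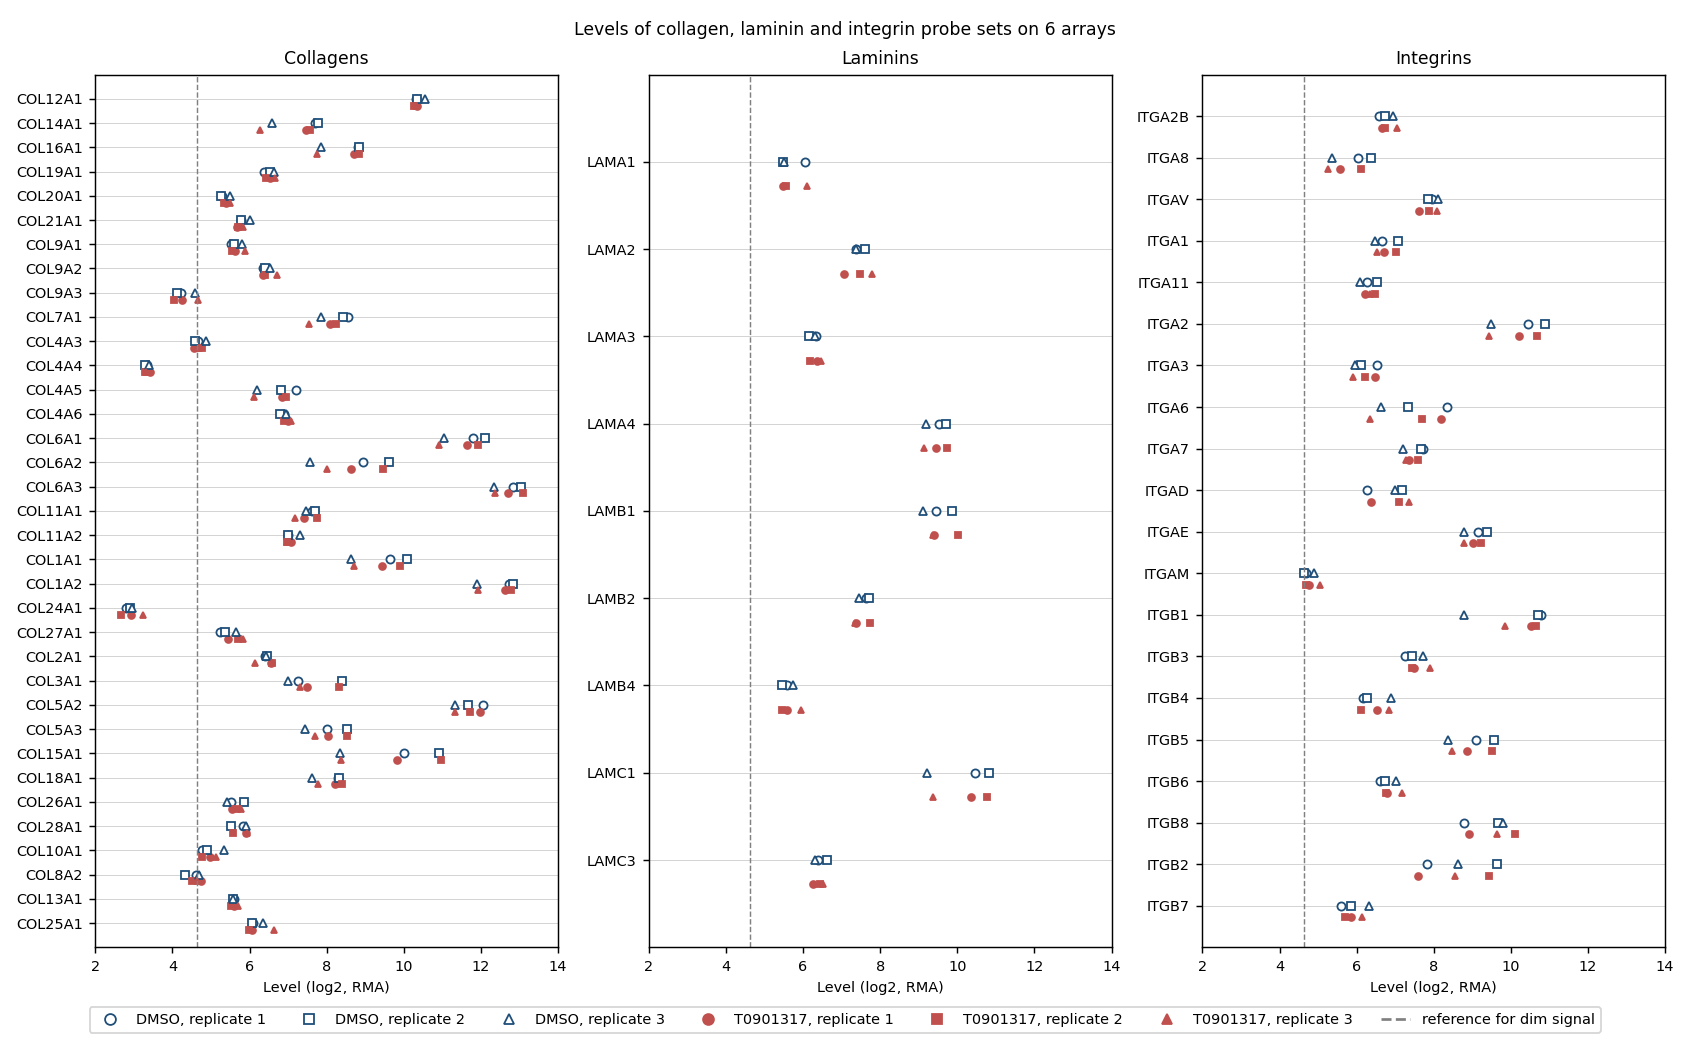
Level (horizontal axis, log2) of each collagen, laminin and integrin probe set (vertical axis) on the 6 arrays; open symbols are DMSO, filled symbols T0901317, the shape gives the replicate and the dashed line the dim reference of 4.63. Shapes lie far apart for COL15A1, COL6A2, LAMC1 and ITGA2, and the open and filled triangles of ITGB1 (8.80 and 9.84) also lie apart.

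All 9 measured laminin chains lay above the dim reference on every array, and none changed past the threshold. Of the 14132 named genes, 11738 lay above that reference on every array. LAMA4, an alpha chain of endothelial basement membranes, had 9.54, 9.70 and 9.19 with vehicle and 9.45, 9.72 and 9.12 with T0901317, a change of -0.04 ± 0.08. LAMB1, a widely used beta chain, had 9.45, 9.87 and 9.10 with vehicle and 9.40, 10.01 and 9.37 with T0901317. Its change was 0.12 ± 0.09, and -0.0026 on its second probe set. LAMC1, the gamma chain of most laminins, had 10.46, 10.81 and 9.22 with vehicle and 10.36, 10.76 and 9.38 with T0901317, a change of 0.0049 ± 0.08. These 3 chains can form one trimer, and each was lowest in replicate 3.

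LAMB2, the beta chain of synaptic and kidney laminins, had 7.64, 7.72 and 7.46 with vehicle and 7.37, 7.73 and 7.35 with T0901317, a change of -0.12 ± 0.11. LAMA1, the main alpha chain of the embryo, varied most between pairs, with differences of -0.55, 0.07 and 0.61 and a mean of 0.04 ± 0.18. LAMA3, an epithelial alpha chain, was the only laminin with one sign in 3 of 3 pairs, at 0.06 ± 0.12. The median change of the laminins was 0.0049, with pair medians of -0.09, 0.02 and 0.20. Without replicate 1 it was 0.09 and without replicate 3 it was -0.07. LAMA5 was not analysed here.

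All 20 integrin subunits lay above the dim reference on every array, as did 11738 of the 14132 named genes. Over all members 62 or 91.2% had a mean above it, against 86.8% of named genes. The integrins had a median change of 0.0097, with 11 above 0 and 9 below, and none changed past the threshold. Centring each array on its median gave family medians of -0.03 for collagens, -0.02 for laminins and -0.01 for integrins, all below 0. The fibronectin on which the cells were plated is bound by the RGD-binding integrins. ITGAV had 7.97, 7.85 and 8.10 with vehicle and 7.63, 7.88 and 8.08 with T0901317, a change of -0.11 ± 0.11. Its partner ITGB5 had 9.08, 9.56 and 8.36 with vehicle and 8.87, 9.50 and 8.46 with T0901317, a change of -0.05 ± 0.09. ITGB3, another partner, had a change of 0.14 ± 0.10 and was higher in 3 of 3 pairs, while its other 7 probe sets lay between -0.15 and 0.15. ITGB6, an epithelial partner, had 0.12 ± 0.11, and ITGB8, which with ITGAV activates latent TGF-beta, had 0.14 ± 0.11. ITGA5, the classical fibronectin receptor subunit, was not analysed here.

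ITGB1, the beta subunit shared by most matrix receptors, depended on a single array. Its levels were 10.79, 10.70 and 8.80 with vehicle and 10.51, 10.66 and 9.84 with T0901317. The vehicle array of replicate 3 was the lowest, and it also had the highest 3' minus 5' control difference. The pairs differed by -0.28, -0.04 and 1.05, and the fitted change was 0.24 ± 0.19 (95% interval -0.16 to 0.65). Without replicate 3 the value was -0.16, and with the control difference as a covariate it was -0.06. The part of RNA quality in this value was not tested further. Its 1 probe set is of a design that may read more than 1 transcript.

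Among the collagen-binding alpha subunits, ITGA2 was lower in 3 of 3 pairs. Its levels were 10.45, 10.89 and 9.47 with vehicle and 10.22, 10.66 and 9.43 with T0901317. The change was -0.17 ± 0.08 (unadjusted p = 0.055 in limma), and a second probe set had -0.29 ± 0.09 (unadjusted p = 0.0093 in limma; adjusted p = 1.00), again lower in 3 of 3 pairs. ITGA1, which prefers type IV collagen, had 6.66, 7.08 and 6.48 with vehicle and 6.71, 7.03 and 6.52 with T0901317, a change of 0.01 ± 0.11. ITGA6, a laminin-binding subunit, had 8.34, 7.33 and 6.62 with vehicle and 8.19, 7.70 and 6.34 with T0901317. It averaged -0.02 ± 0.13 over pairs of -0.15, 0.37 and -0.28. ITGA3 and ITGA7, which also bind laminins, had 0.0056 ± 0.12 and -0.11 ± 0.11.

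ITGA8, an RGD-binding subunit of contractile and stromal cells, had 6.03, 6.37 and 5.36 with vehicle and 5.56, 6.11 and 5.26 with T0901317. It was lower in 3 of 3 pairs, with the largest decrease among integrins, -0.28 ± 0.13 (95% interval -0.56 to 0.0014), and -0.02 on its second probe set. All 5 measured pericyte and smooth muscle markers also lay below 0, with a median of -0.16, and 0 of them passed. The mean level of these markers ran from 8.89 to 9.63 over the vehicle arrays and from 8.62 to 9.36 over the treated arrays. Their part in the value of ITGA8 was not tested.

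The leukocyte integrin subunit ITGB2 had 7.82, 9.65 and 8.62 with vehicle and 7.59, 9.43 and 8.55 with T0901317. It was lower in 3 of 3 pairs, at -0.17 ± 0.09, and its other 3 probe sets had -0.20, -0.19 and -0.08. Among the 9 macrophage markers 3 lay above 0 and 6 below, with a median change of -0.02. TYROBP, an adaptor of myeloid cells, had the largest change of them, -0.29 ± 0.08 (limma adjusted p = 0.66). The mean level of these markers was 7.57, 8.74 and 8.70 in vehicle replicates 1, 2 and 3, and 7.50, 8.68 and 8.70 with T0901317. Replicate 1 was lowest both for ITGB2 and for the macrophage markers. Of the other leukocyte lists, all 5 blood and neutrophil markers lay below 0, with a median of -0.30, and so did all 4 measured T and NK cell markers, with a median of -0.14. None of them passed, the largest being S100A9, a calcium-binding protein of myeloid cells, at -0.56 ± 0.14 (limma adjusted p = 0.56). The mean level of the blood and neutrophil markers ran from 5.70 to 6.36 over the vehicle arrays and from 5.23 to 5.97 over the treated arrays, and that of the T and NK markers from 7.09 to 8.24 and from 6.92 to 8.13. The part of these cells in the values of ITGB2 was not tested. ITGAM, an alpha partner of ITGB2, was close to the dim reference, with 4.64 to 5.05 over the 6 arrays and a change of 0.09 ± 0.13. ITGAE, the subunit of intraepithelial T cells, had -0.10 ± 0.09, and ITGAD, another leukocyte subunit, 0.13 ± 0.12. ITGAL, ITGAX and ITGA4 were not analysed here.

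The genes that share only the integrin prefix did not change past the threshold either. All 4 lay below 0, with ITGB1BP1 at -0.12 ± 0.08, ITGB1BP2 at -0.06 ± 0.12, ITGB3BP at -0.05 ± 0.11 and ITGBL1 at -0.23 ± 0.12. ITGBL1 lay below the dim reference on all 6 arrays, and ITGB1BP2 lay above it on 3 of 6. ITGB3BP, which is also a centromere protein, had 7.80, 7.75 and 5.73 with vehicle and 7.54, 7.80 and 5.78 with T0901317, so both arrays of replicate 3 were low.

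More members differed among the replicate numbers than with treatment. In the same fit, limma's F test of the replicate terms called 34 of 68 members (50.0%) at an adjusted p under 0.05, beside 46.2% of all named genes and 50.0% of those above the dim reference. They were 15 of 35 collagens, 3 of 9 laminins, 14 of 20 integrins and 2 of the other 4 genes. This test sets the 2 arrays of each number against those of the others, so it compares 3 pairs of cultures. The SD over the vehicle arrays exceeded the size of the treatment change for 63 of 68 members or 92.6%, against 88.2% of named genes. The count of 34 was 17 without replicate 3, 26 without replicate 2 and 36 without replicate 1.

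**Figure D3:**
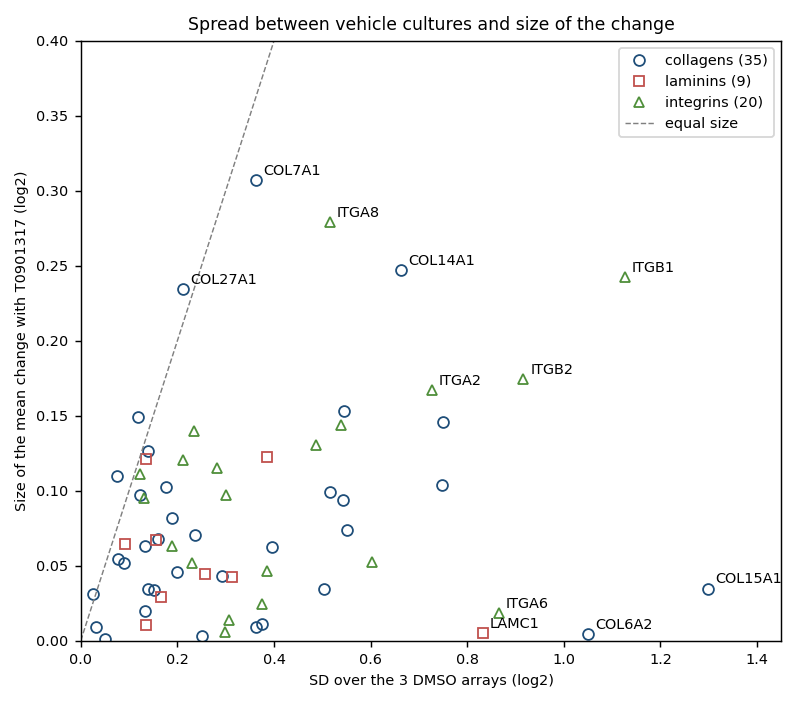
Size of the mean change with T0901317 (vertical axis, log2) against the SD over the 3 DMSO arrays (horizontal axis, log2) for the collagens, laminins and integrins, 1 symbol per gene; the axes have different scales and the dashed line marks equal values. Most symbols lie right of the line, with COL15A1 farthest right at 1.30 and a change of 0.03 in size.

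Of the 34 members, 27 (79.4%) had their lowest mean in replicate 3 and 24 their highest in replicate 2. Over all named genes called by this test, 56.4% were lowest in replicate 3, and 59.2% of those above the dim reference. Of the 6527 named genes called, 2447 were highest in replicate 2. The differences between these shares were not tested. Among collagens 14 of 15 were lowest in replicate 3. With quantile normalization of the deposited values, 23 members were lowest there. COL15A1 spread most, with means over both treatments of 9.92, 10.94 and 8.36 in replicates 1, 2 and 3 (limma adjusted p = 7.2e-08). Its second, dimmer probe set had 7.18, 6.95 and 6.68 (limma adjusted p = 0.068). COL6A2 had 8.79, 9.55 and 7.79, LAMC1 had 10.41, 10.79 and 9.30, and ITGA2 had 10.34, 10.78 and 9.45. COL1A1 followed the same order with 9.55, 9.98 and 8.66.

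The mean level of the fibroblast markers had this order too, with 8.84, 9.06 and 8.31 in vehicle replicates 1, 2 and 3. All 5 of them that differed among replicates were lowest in replicate 3, but 3 were highest in replicate 2 and 2 in replicate 1. DCN, a proteoglycan that binds collagen fibrils, had 12.66, 13.12 and 11.80. Endothelial markers had a mean of 6.77, 7.18 and 6.57, but the 6 of them that differed were split, with 3 lowest in replicate 1 and 3 in replicate 3. Pericyte and smooth muscle markers (9.63, 8.98 and 8.89) and steroidogenic markers (8.87, 8.68 and 8.46) had their highest vehicle mean in replicate 1. The macrophage, T and NK, and blood and neutrophil markers had their lowest vehicle mean in replicate 1. Low fibroblast marker levels and the higher 3' minus 5' control difference fell on the same replicate, replicate 3. Cell composition was not measured, and the parts of composition and RNA quality in these levels were not tested.

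**Figure D4:**
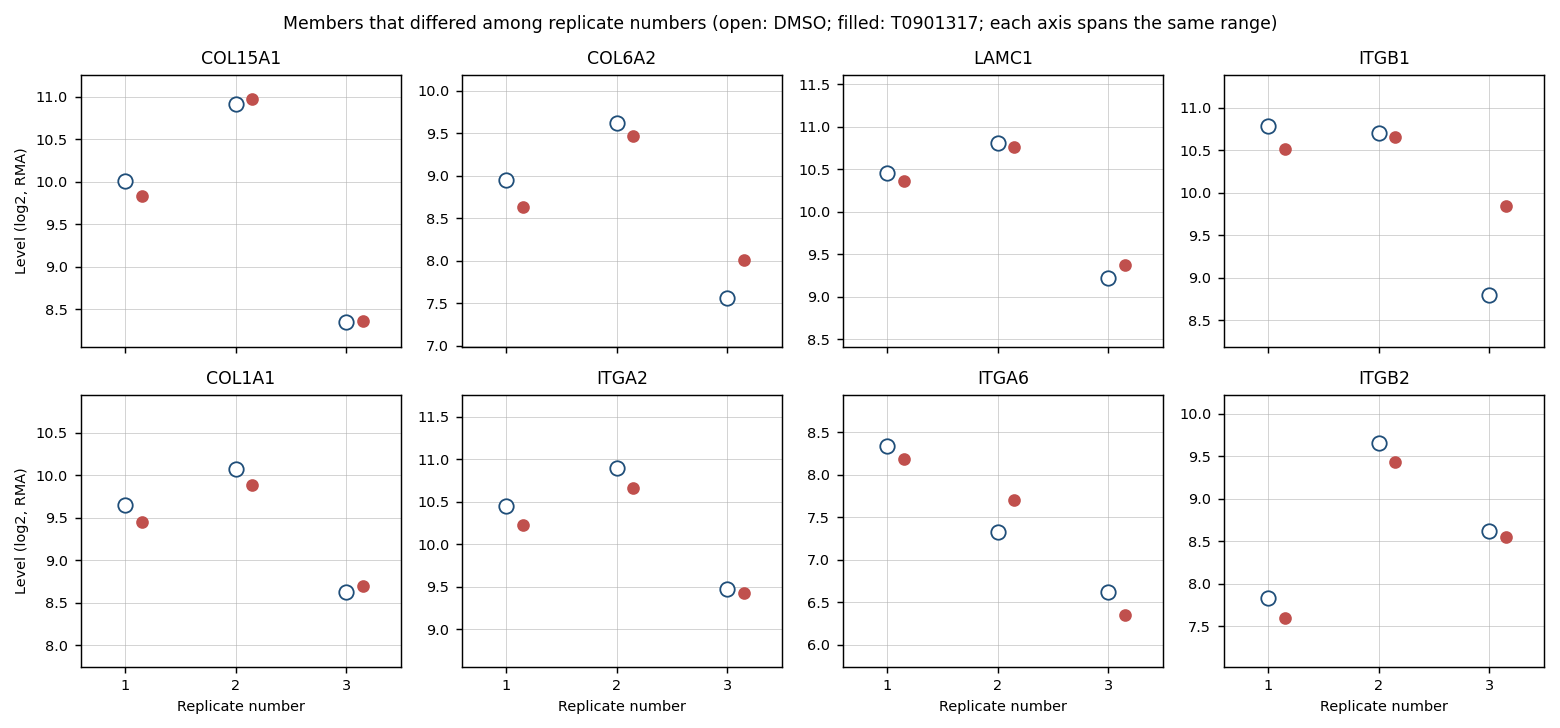
Levels (vertical axis, log2) of 8 members by replicate number (horizontal axis), with DMSO as open and T0901317 as filled circles, 1 array each; each panel spans the same number of log2 units. COL15A1, COL6A2, LAMC1, COL1A1 and ITGA2 are highest in replicate 2 and lowest in replicate 3, ITGA6 is highest in replicate 1 and lowest in replicate 3, and ITGB2 is lowest in replicate 1.

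Not all members had this order. ITGA6 had means of 8.27, 7.52 and 6.48, and all its 4 probe sets differed among replicates, but not in one order: the third in brightness had 5.63, 6.37 and 5.65, highest in replicate 2 and lowest in replicate 1. ITGB3 was highest in replicate 3 on its representative probe set, with 7.37, 7.43 and 7.81, but lowest there on another with a similar mean level, with 7.60, 8.62 and 5.53. The array cannot say which of them follows the gene. Of 40 members with several probe sets, 21 had all treatment changes on one side of 0 and 19 had them on both sides.

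By genome order in the RefSeq gene table (assembly T2T-MMU8v2.0), 10 members form 5 pairs of next neighbours: COL3A1 with COL5A2, COL4A3 with COL4A4, COL6A1 with COL6A2, LAMB1 with LAMB4, and COL9A1 with COL19A1. Neighbours did not show one pattern. COL6A1 and COL6A2 were both highest in vehicle replicate 2 and lowest in replicate 3. COL3A1 was highest in replicate 2, at 8.41, whereas COL5A2 had 12.07, 11.67 and 11.31 and was highest in replicate 1. Changes with T0901317 were 0.15 and -0.01 for COL3A1 and COL5A2.

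The other genes of matrix assembly and adhesion were also without a call. None of 76 measured partners passed in limma (0 rose, 0 fell; 2 with an unadjusted p under 0.05). Over all named genes 41.4% lay above 0. Of 26 collagen-processing genes, 10 (38.5%) lay above 0 and 16 below, with a median of -0.02. Their largest values were those of ADAMTS3, a procollagen protease (-0.14 ± 0.12), and SERPINH1, the collagen chaperone (-0.10 ± 0.07). Of 24 integrin adaptors, 7 lay above 0, with FERMT1 at -0.18 ± 0.13 and the kinase SRC at -0.17 ± 0.10, and a median of -0.05. Of 8 non-integrin matrix receptors, 3 lay above 0, with the collagen receptor DDR2 at 0.13 ± 0.10 and the syndecan SDC3 at 0.09 ± 0.13. The median of these receptors was -0.0044.

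Among 18 other matrix proteins the median was -0.04, and NTN4 stood farthest from it. NTN4 encodes netrin-4, a basement membrane protein that binds laminin gamma chains. Its levels were 6.86, 6.75 and 5.52 with vehicle and 7.50, 7.16 and 7.12 with T0901317. Every treated array lay above every vehicle array. The change of 0.88 ± 0.19 (95% interval 0.48 to 1.29; 1.85-fold) did not pass over all probe sets (limma adjusted p = 0.27). It passed without replicate 2 (1.12; limma adjusted p = 0.0078), without replicate 3 (0.53; 0.035) and with the control difference as a covariate (0.65; 0.024), and in the other 9 alternatives its limma adjusted p ran from 0.059 to 1.00. TNXB, a tenascin of connective tissue, had -0.27 ± 0.14, also without overlap of the groups (6.02, 5.86 and 6.42 against 5.83, 5.83 and 5.81).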

How the data were processed

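The deposited values are log2 signals made by the authors with RMA, per the submitters' processing notes, for 52865 probe sets on each of 6 arrays. Its version, the array dates and the build behind the design are not given in the sources used here. After 99 control probe sets were left out, 52766 were tested, of which 24956 had 1 symbol in the platform annotation. The gene numbers of 129 of the 136 member probe sets were in the RefSeq gene table, and 0 symbols differed.

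T0901317 minus DMSO was fitted across all probe sets with limma 3.58.1 in R 4.3.3, with replicate as a block and a variance trend, and p-values were adjusted by the Benjamini-Hochberg method at 0.05, two-sided. The F test of the replicate terms came from the same fit. With 3 pairs, a sign-flip test of 1 gene has 0.25 as its lowest two-sided p. The design text states the pairing; deviations from group means of same-numbered arrays correlated at 0.66, 0.81 and 0.83. The 12 alternatives covered the block, a dim-signal filter, normalization, averaging of probe sets, eBayes settings, an RNA quality covariate and leaving out each replicate. The fit was tested on simulated data with 10 random seeds: false treatment calls stayed near the nominal share with variances drawn from limma's fitted prior, and exceeded it with each probe set's moderated variance taken as true.

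Members, families, partner and marker lists were chosen with earlier results of these data known. The naming rule takes members that passed, in each family the 5 largest changes of one sign in 3 pairs and the 4 largest SDs over vehicle arrays, a fixed set (20 of 28 measured), the 4 genes with the integrin prefix only, and in each partner list genes that passed or the 2 largest changes. Other members were named after their values were seen. Protein or promoter sequences were not used here.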

Additional observations from a re-analysis of the deposited data

How the results depend on the processing

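The 0 calls among the 68 members stood under all 12 alternatives, and without the replicate block, with 0 members at an unadjusted p under 0.05 in limma. The family medians moved by less than the SD of their pair medians under each. The fit without the block left every other count of treatment calls at 0 too. 2 counts moved by over 1.5 times. Members that differed among replicates numbered 34, and 17 to 36 when a replicate was left out, lowest without replicate 3. Partner genes past the threshold numbered 0 in the main limma fit (2 at an unadjusted p under 0.05), 1 with the RNA quality covariate (NTN4), and 0 to 2 when a replicate was left out: NTN4 without replicate 2, NTN4 and THBS1 without replicate 3. The cause was not tested. The covariate fit has fewer residual degrees of freedom. Of the 41 named genes, 13 changed sign under at least 1 alternative, and none of these was called in any fit. The alternatives for partner genes and for the count lowest in replicate 3 were chosen after seeing the data. Signal near background limits COL24A1, COL4A4 and ITGBL1, whose 6 arrays all lay below the dim reference. It also limits COL9A3, COL8A2 and ITGB1BP2, whose means lay below it, with 1, 3 and 3 of 6 arrays above it.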
